A study of Mus musculus with 4 samples.

Results

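The genes described here are 10 members of the IL-6 family signalling route, from the cytokines Il6, Il11 and Lif through their receptors to the transcription factor Stat3 and its inhibitor Socs3. They were chosen by gene symbol, taking for each the brightest row of the deposited table that carried that symbol alone. This set and the gene lists used below were drawn up with earlier results of these data known. Their shares beside all genes therefore describe them and are not independent support. Of the 10, 9 were measured, among 22180 genes in all. No row was named Il11ra1 alone, and this gene was not analysed here. RNA came from mouse fibroblasts and was hybridised to 4 Affymetrix Mouse Gene 2.0 ST arrays, 1 per sample. The samples labelled WT came from wild-type mice (2 biological replicates) and those labelled Zip13KO from mice without the zinc transporter Zip13, the product of Slc39a13 (2 biological replicates). The study asks how zinc balance around the Golgi shapes that part of the cell. The labels give no age, sex, strain, tissue of origin or culture condition, do not describe the deleted part of the gene, and do not say whether replicates were separate animals or cultures. The p-values therefore rest only on spread between these samples, part of which may be technical. For each gene that spread was largely pooled over all genes (2 residual against 15.1 prior degrees of freedom).

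Cytokines of the IL-6 family signal through receptor complexes that share gp130, the product of Il6st. Interleukin-6 and interleukin-11 first bind private receptors, Il6ra and Il11ra1, which bring gp130 together, whereas leukaemia inhibitory factor (Lif) joins gp130 to Lifr and oncostatin M joins it to Osmr. Janus kinases bound to these chains phosphorylate STAT3, which enters the nucleus and switches on genes that include Socs3, a feedback inhibitor that acts on gp130 and the kinases. In fibroblasts the route is known for roles in tissue repair, inflammation and scarring. Arrays of this kind measure transcripts only, so receptor protein and phosphorylated STAT3 were not measured here.

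In the fibroblasts labelled Zip13KO the signalling receptor chains and Stat3 were lower, and the cytokines were not distinguishable between the groups. Osmr fell most, 2.82-fold, followed by Lifr, Stat3 and Il6st. Of the 9 measured members, 4 fell and none rose in limma with Benjamini-Hochberg adjustment over all genes (called at an adjusted p under 0.05). Among all 22180 genes, 10.1% fell and 7.00% rose by the same adjusted test. At an unadjusted p under 0.05, 5 members were lower and 0 higher. The share of all genes at that unadjusted threshold was not taken, so this count has no reference. The arrays of the groups did not overlap for 6 of the 9 members, in each case with Zip13KO lower, beside 27.3% of all genes in that direction and 51.5% in either. The median difference was -0.18 log2 units over the members and -0.00 over all genes. With 2 arrays per group the smallest two-sided p of an exact permutation test is 0.333, and all calls therefore depend on the moderated model.

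Slc39a13 itself read 8.94 and 8.85 log2 units on the WT arrays and 8.89 and 8.98 on those labelled Zip13KO, a difference of 0.04 (limma adjusted p = 0.820). Where its probes lie relative to the deleted part is not known, so it does not check the labels, and directions here follow the labels as given. The median of all rows lay between 6.56 and 6.59 log2 units on the 4 arrays, and the difference between replicate arrays had an SD over genes of 0.12 in both groups. Of 12 fibroblast markers, 10 lay above the array median on all 4 arrays, but Lum and Fap did not. Of the 12 fibroblast markers, 6 fell and 1 rose, beside 10.1% lower and 7.00% higher among all genes. Their summed intensity was 20475 and 19714 in WT against 15150 and 15985 in Zip13KO. Of 8 contractile markers 5 fell, and their summed intensity was 14473 and 13908 in WT against 3234 and 3226 in Zip13KO. Summed intensities of 10 leukocyte markers (1041 and 1005 in WT, 1006 and 997 in Zip13KO) lay close together, with 1 marker higher and 2 lower. Of these 10, 6 lay below the array median on all 4 arrays, so the sum could miss a change. Of 8 endothelial and 7 epithelial markers none passed in limma, with 1 in each list at an unadjusted p under 0.05. Of the endothelial markers 6 also lay below the array median on all 4 arrays. Of the 7 epithelial markers, 5 lay above it on all 4 arrays, so a place above the median does not identify the cell type. In bulk RNA, fewer cells of a type and less RNA per cell cannot be told apart. The part of the contractile and fibroblast markers in the results below was not tested.

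Promoter windows from RefSeq (build GRCm38.p6), from 250 bases before to 50 after an annotated start, were found for all 10 members. They are shown for Osmr, which fell most, for Stat3, the factor common to the family, for Socs3, a classical STAT3 target, and for Il6, the founding cytokine. Capitals mark matches, on either strand, to STAT (TTCNNNGAA), AP-1 (TGANTCA), NF-kB (GGANTTTCC) or C/EBP (TTNNGCAA) motifs, and none of the matches overlapped another.
Osmr, chr15:6874264-6874563, minus strand: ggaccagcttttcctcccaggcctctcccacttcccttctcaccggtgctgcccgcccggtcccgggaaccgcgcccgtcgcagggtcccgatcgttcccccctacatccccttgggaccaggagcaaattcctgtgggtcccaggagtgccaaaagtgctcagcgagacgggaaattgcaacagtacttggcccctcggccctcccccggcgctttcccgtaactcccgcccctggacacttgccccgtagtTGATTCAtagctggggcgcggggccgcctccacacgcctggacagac
Stat3, chr11:100939491-100939790, minus strand: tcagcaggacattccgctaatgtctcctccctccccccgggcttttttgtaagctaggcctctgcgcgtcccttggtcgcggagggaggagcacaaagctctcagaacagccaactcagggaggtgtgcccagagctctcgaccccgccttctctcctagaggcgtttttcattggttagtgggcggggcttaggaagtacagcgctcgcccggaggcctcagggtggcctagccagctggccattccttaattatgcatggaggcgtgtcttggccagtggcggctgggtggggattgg
Socs3, chr11:117969317-117969616, minus strand: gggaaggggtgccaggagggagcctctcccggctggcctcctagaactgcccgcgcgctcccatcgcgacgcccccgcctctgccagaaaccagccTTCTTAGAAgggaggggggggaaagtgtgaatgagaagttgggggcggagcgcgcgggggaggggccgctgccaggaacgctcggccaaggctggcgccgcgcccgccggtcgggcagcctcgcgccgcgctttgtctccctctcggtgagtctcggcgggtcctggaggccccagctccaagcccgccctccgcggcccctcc
Il6, chr5:30012864-30013163, plus strand: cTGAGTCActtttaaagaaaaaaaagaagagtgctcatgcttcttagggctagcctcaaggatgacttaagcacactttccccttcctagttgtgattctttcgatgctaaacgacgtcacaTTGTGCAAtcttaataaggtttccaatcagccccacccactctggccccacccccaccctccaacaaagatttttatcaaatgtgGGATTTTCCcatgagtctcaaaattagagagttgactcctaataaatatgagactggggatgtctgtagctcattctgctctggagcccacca

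Among the 13 windows of the members, a STAT match was found in that of Socs3 alone, at -154 to -146 from the start, while 8.30% of all 32851 windows held one. AP-1 matches lay in windows of all 3 cytokines and of Osmr (positions 4 to 10 after the start), against 7.81% of all windows. The pattern leaves the middle letter free, and it was T in Osmr but G or C in the cytokines. The Il6 window also held an NF-kB match at -43 to -35 (1.25% of all windows) and a C/EBP match at -128 to -121 (10.8%). No match to any of the 4 motifs was found in the windows of Stat3, Il6st or Lifr. A match is a description of letters, and these windows leave out more distant elements.

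The cytokines gave no difference that passed the test. Il6, made by fibroblasts in response to inflammatory signals, read 5.71 and 5.74 log2 units in WT and 5.91 and 5.66 in Zip13KO. All of these values lie below the array median, and the Zip13KO pair spans the WT pair. The difference of 0.06 (SE 0.09, adjusted p = 0.756) had a 95% interval of -0.12 to 0.24, but on a signal this dim a change in Il6 may be compressed. Il11, a cytokine linked to fibroblast activation, read 6.65 and 6.74 in WT and 6.58 and 6.55 in Zip13KO. The Zip13KO arrays were lower without overlap, yet close to the array median, and the difference of -0.13 did not pass (95% interval -0.30 to 0.04, adjusted p = 0.360). Lif, named for its effect on leukaemia cells, was brighter, at 7.97 and 7.68 in WT and 7.92 and 7.97 in Zip13KO. Only WT replicate 2 stood lower, and the difference of 0.12 did not pass (95% interval -0.07 to 0.31, adjusted p = 0.484).

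Il6ra, the private receptor that lets a cell answer interleukin-6 directly, was near level. It read 8.21 and 8.14 log2 units in WT and 8.15 and 8.15 in Zip13KO, a difference of -0.02 (SE 0.08, adjusted p = 0.919). The interval of -0.18 to 0.14 leaves room for a change of up to 1.13-fold downward or 1.10-fold upward.

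All 3 shared or signalling chains fell. Osmr, which pairs with gp130 for oncostatin M and with Il31ra for interleukin-31, had deposited intensities of 728 and 669 in WT and 242 and 254 in Zip13KO. On the log2 scale these are 9.51 and 9.39 against 7.92 and 7.99, so the groups lie far apart compared with the gap of 0.12 between the WT arrays and 0.07 between the Zip13KO arrays. The difference of -1.49 log2 units (SE 0.08, 95% interval -1.66 to -1.33, adjusted p = 1.07e-10) placed Osmr at rank 90 of 22180 genes by size of difference. Lifr, the signalling chain for leukaemia inhibitory factor, had intensities of 248 and 230 in WT and 148 and 153 in Zip13KO. It fell by 0.66 log2 units (SE 0.08, 95% interval -0.83 to -0.49, adjusted p = 7.89e-06), or 1.58-fold. Il6st, which encodes the gp130 chain common to the family, gave 1947 and 1864 in WT and 1388 and 1514 in Zip13KO. Its difference of -0.39 log2 units (SE 0.07, 95% interval -0.54 to -0.25, adjusted p = 3.16e-04) was 1.31-fold and larger than the gap of 0.13 between the Zip13KO arrays. The interval of Osmr does not overlap those of Lifr and Il6st, while those of Lifr and Il6st overlap.

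Stat3, the transcription factor that carries the signal of these receptors, fell with them. Its intensities were 1123 and 1072 in WT and 663 and 749 in Zip13KO, so both Zip13KO arrays were lower than either WT array. The difference was -0.64 log2 units (SE 0.07, 95% interval -0.80 to -0.48, adjusted p = 5.51e-06), or 1.56-fold lower, with an interval that overlaps those of Lifr and Il6st. Socs3, the feedback inhibitor, read 7.71 and 7.83 log2 units in WT and 7.56 and 7.62 in Zip13KO. Both Zip13KO arrays were again the lower ones, but the gap between the groups was small and the difference of -0.18 did not pass (SE 0.08, unadjusted p = 0.0399, adjusted p = 0.164). A dimmer second row for Socs3 read 6.26 and 6.24 in WT and 6.21 and 6.27 in Zip13KO, below the array median throughout.

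**Figure D1:**
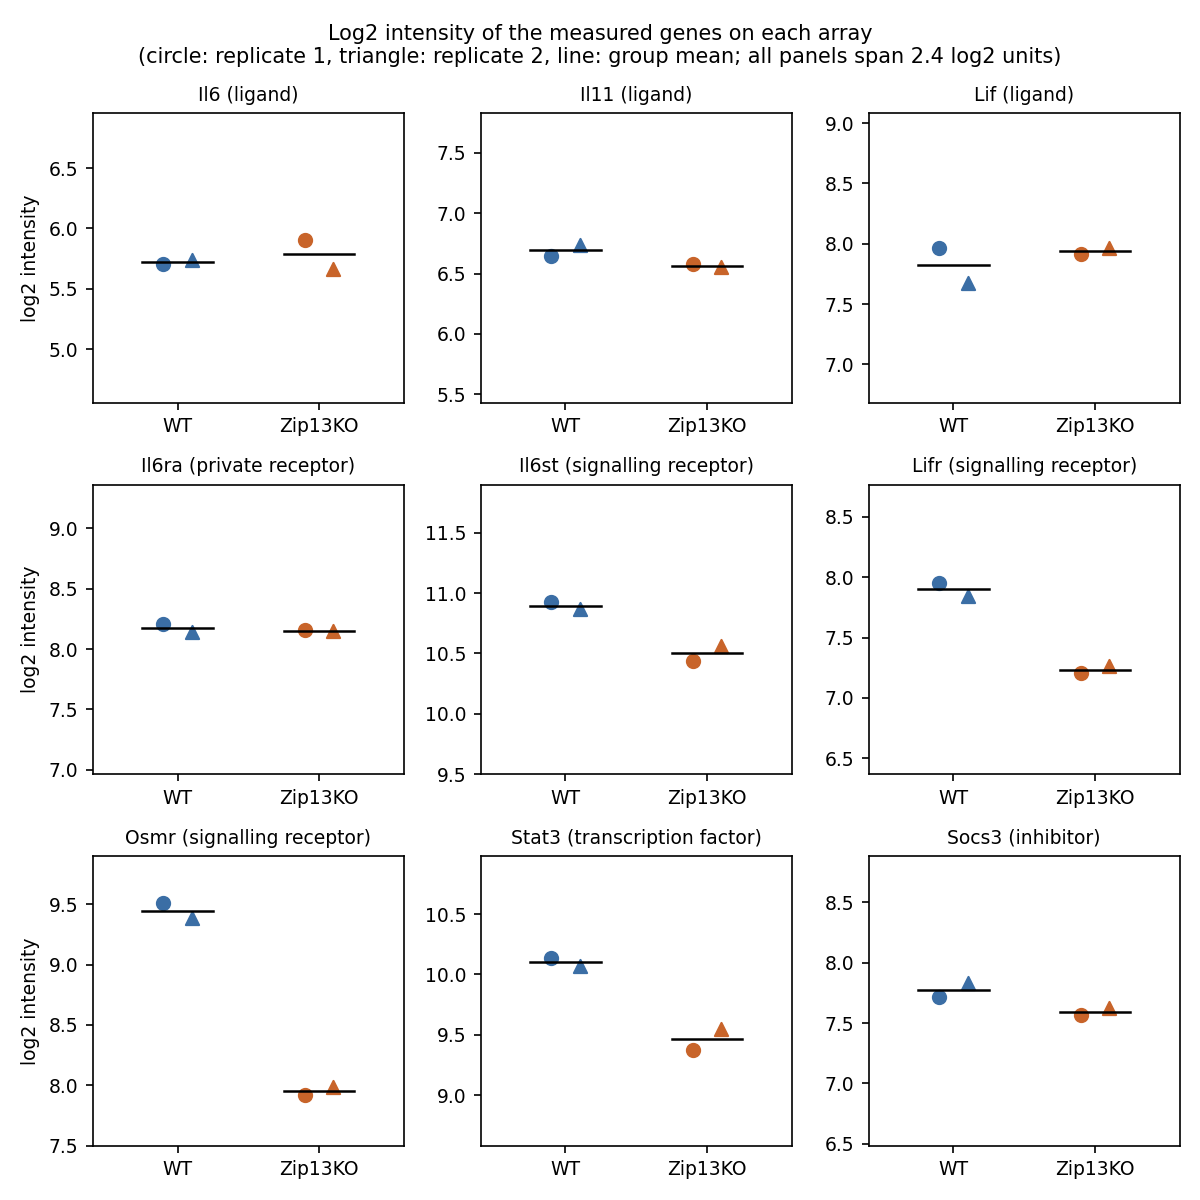
Log2 intensity (vertical axis, each panel spanning the same range) of the 9 measured genes on the WT and Zip13KO arrays, with a point per array and a line at each group mean. The Osmr, Lifr, Il6st and Stat3 points of Zip13KO sit below both WT points with wide gaps, whereas those of Il6, Lif and Il6ra overlap.

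**Figure D2:**
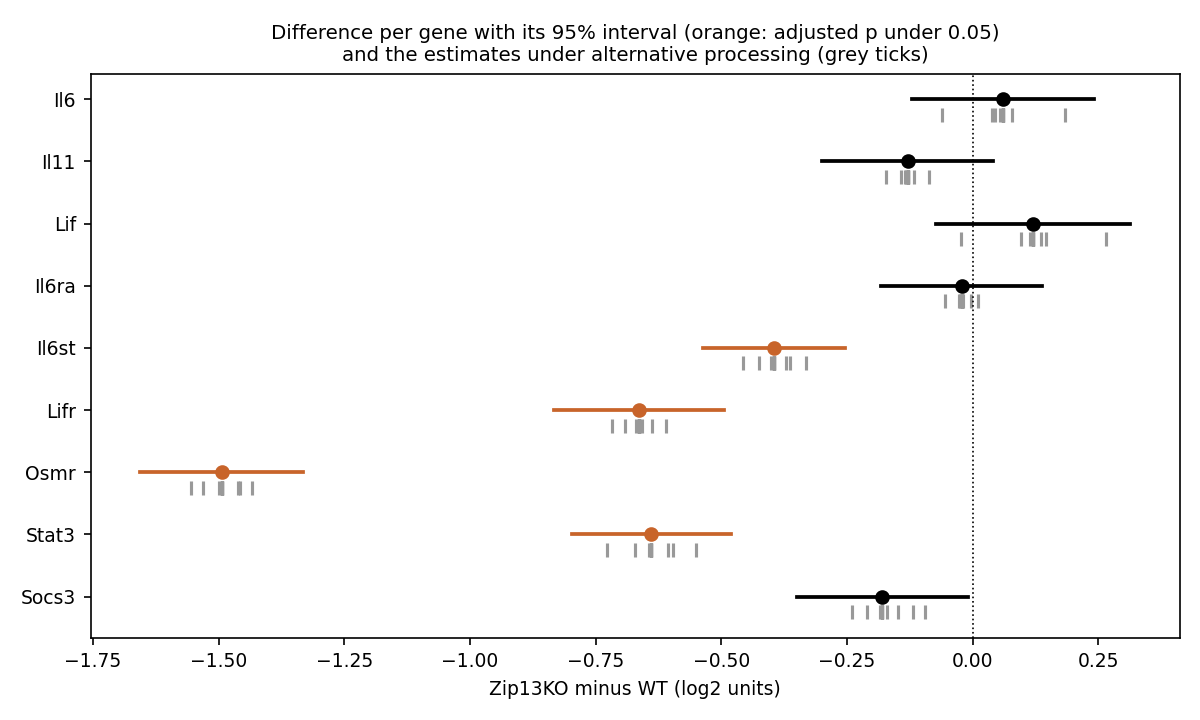
Zip13KO minus WT in log2 units (horizontal axis) for each gene, with the 95% interval of the limma fit as a line and the estimates under other processing settings as grey ticks. Osmr at -1.49 stands apart from Lifr (-0.66), Stat3 (-0.64) and Il6st (-0.39), and the estimates of these 4 genes stay below 0 in every setting drawn.

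The 4 members that fell do not lie on the chromosome of Slc39a13, and Osmr and Lifr are next to each other. In the RefSeq gene order, no other measured gene lies between Osmr and Lifr on chromosome 15. Of the 20 measured genes nearest to Osmr, 6 fell and 1 rose, beside 10.1% lower and 7.00% higher among all genes. Their median difference was -0.06 log2 units. The 6 were Lifr, the prostaglandin receptor Ptger4 (-0.68), the neurotrophic factor Gdnf (-0.37), Wdr70 (-0.25), the cohesin loader Nipbl (-0.25) and the glutamate transporter Slc1a3 (-0.76). Rictor, the neighbour of Osmr on the other side and a subunit of the mTORC2 kinase complex, was at -0.15 (adjusted p = 0.199). Around Stat3, none of 20 neighbours fell in limma (0 were lower at an unadjusted p under 0.05), and 1 rose, Kat2a at 0.32. On one side its nearest neighbours are Stat5a (0.04, adjusted p = 0.844) and Stat5b (0.14, adjusted p = 0.321), STAT factors used by other cytokines. Around Il6st, 1 of 20 fell, Plpp1 (-0.78), and the adjacent cytokine receptor gene Il31ra was at -0.04 (adjusted p = 0.838). These neighbours were picked by place alone and named after their values were seen.

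**Figure D3:**
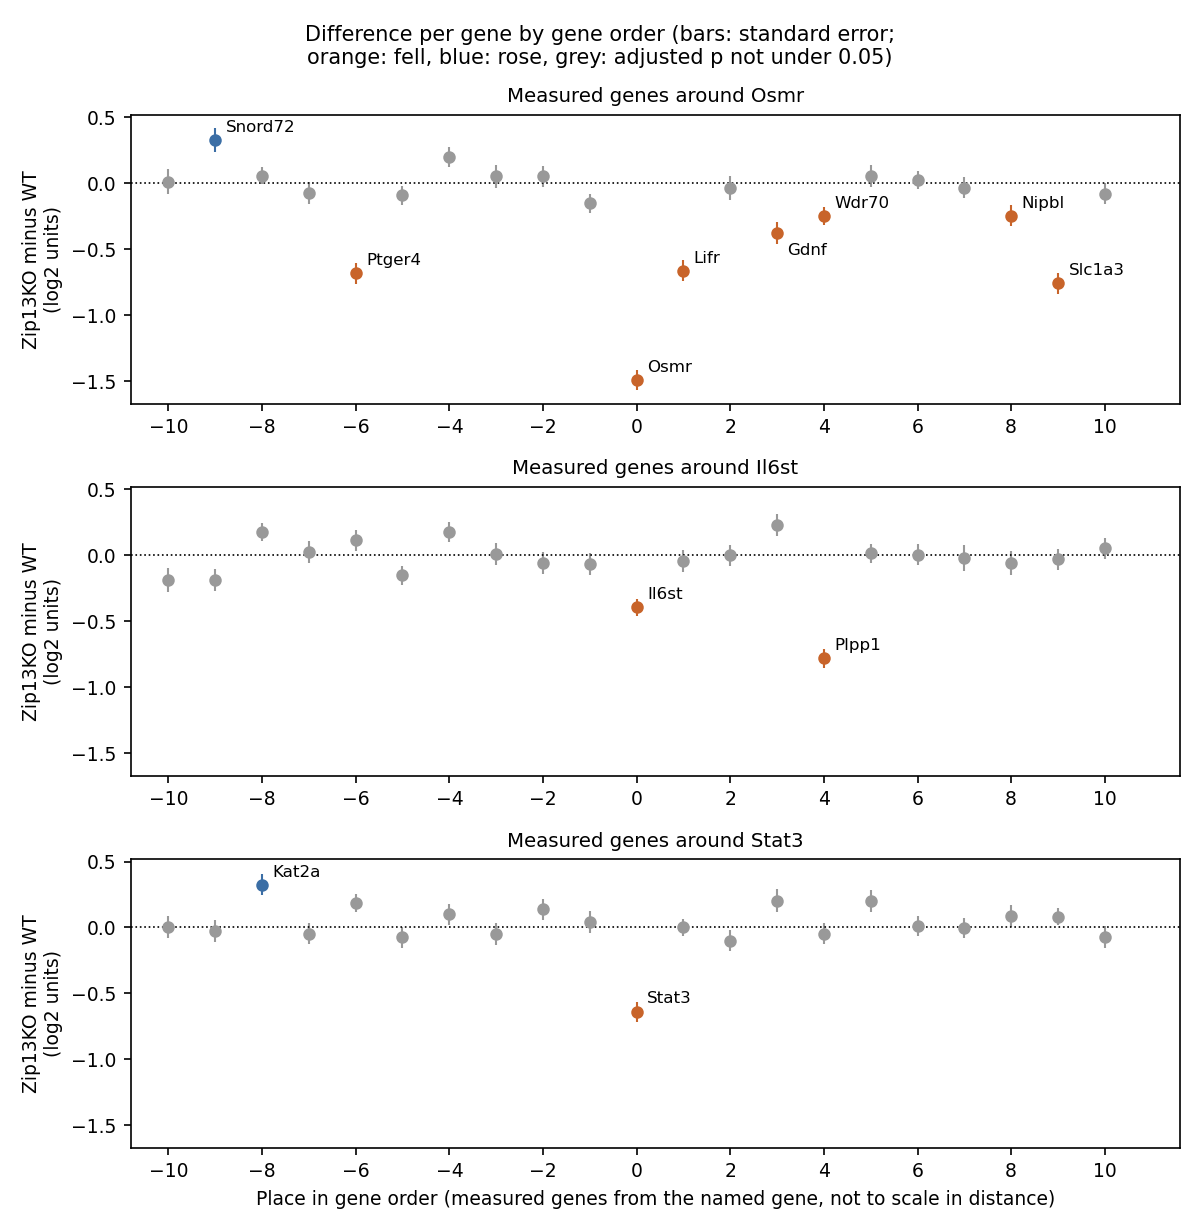
Zip13KO minus WT in log2 units (vertical axis, bars showing the standard error) for the 10 measured genes on each side of Osmr, Il6st and Stat3 in gene order (horizontal axis, counted in genes). Stat3 at -0.64 is the lone gene that fell in its panel, while the Osmr panel also holds Lifr and 5 other genes that fell.

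The genes whose pattern over the 4 arrays was nearest to that of Osmr came from other families. Likeness was the root mean square distance between log2 values centred on each gene's mean, over 4 arrays. The nearest were the fibril-associated collagen Col12a1 (distance 0.03), the actin-binding protein transgelin (Tagln, 0.03), the magnesium transporter Slc41a2 (0.04), the receptor phosphatase Ptprk (0.04) and the transcriptional regulator Mllt3 (0.04). Their differences lay between -1.44 and -1.49 log2 units. With 4 arrays in 2 groups, this likeness mostly restates a similar size of fall.

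The rest of the pathway, 74 measured genes of 79 in 6 lists, went both ways. In limma 11 rose and 13 fell, which is 32.4% past the threshold beside 17.1% of all genes, and their median difference was 0.00 log2 units. Dim genes pass less often. After a filter on low values, 24 of 60 pathway genes passed beside 28.8% of the 13819 genes kept. Of the members 4 of 8 passed then, all lower, beside 17.0% of the genes kept. The filter asks for 2 or more arrays above their median, so it can keep a gene through the group where it is high. Il11, which did not pass, was kept through its WT arrays alone. Among the pathway genes, Rhbdf2, which passed, was kept through its Zip13KO arrays alone. In a fit of all 41345 rows only 10 pathway genes passed, while Osmr, Lifr, Stat3 and Il6st all did. Of the called pathway genes named below, Pias2 and Rela were not followed through the alternatives. Of the others, Jak2, Stat2, Socs2, Cish, Ptprd, Ptpn6, Cebpd, Arid5a, Pim1, Timp1, Zfp36 and Zc3h12a lost their call in that fit.

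Among 7 other measured ligands of the family none passed in limma, with 1 at an unadjusted p under 0.05. That was Clcf1, a partner of the ciliary neurotrophic factor receptor, at -0.20 (adjusted p = 0.130), which passed without Zip13KO replicate 2 (-0.29, adjusted p = 0.0279) but was -0.11 without Zip13KO replicate 1 (adjusted p = 0.617) and -0.14 without WT replicate 1 (adjusted p = 0.501). Osm, the ligand of Osmr, read 6.60 and 6.36 log2 units in WT and 6.45 and 6.53 in Zip13KO, overlapping values of which 1 lay above the array median. Of 7 other receptors of this class, Il27ra rose and none fell in limma, beside 7.00% higher and 10.1% lower among all genes. At an unadjusted p under 0.05, 0 were lower. Il27ra, which pairs with gp130 for interleukin-27, read 6.63 and 6.83 in WT and 7.51 and 7.50 in Zip13KO. Its rise of 0.78 log2 units (SE 0.09, adjusted p = 3.10e-06) ran opposite to the falls of Osmr, Lifr and Il6st. Of the other 6 receptors, 5 lay below the array median on all 4 arrays.

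Among the kinases upstream of Stat3, Jak1 fell, Jak2 rose and Tyk2 did not pass (0.07, limma adjusted p = 0.742). Jak1, the main kinase bound to gp130, read 10.28 and 10.21 log2 units in WT and 9.72 and 9.90 in Zip13KO. Both Zip13KO arrays were lower, and the gene fell by 0.43 (SE 0.07, adjusted p = 3.69e-04), a size within the error of Il6st. Jak2, a kinase of many cytokine receptors, rose by 0.27 (adjusted p = 0.0167), and so did Stat2, an interferon signalling factor, by 0.27 (adjusted p = 0.0277). Of the 8 genes measured in this list, 2 rose and 1 fell, beside 7.00% and 10.1% of all genes. The call of Jak2 was lost when WT replicate 1 (adjusted p = 0.113) or Zip13KO replicate 2 (0.0949) was left out, and with the replicate number as a block (0.0510). That of Stat2 was lost without WT replicate 2 (adjusted p = 0.223) and without Zip13KO replicate 2 (0.129).

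Inhibitors of the route also split, with 3 of 16 higher and 2 lower, beside 7.00% higher and 10.1% lower among all genes. The relatives of Socs3 that fell were Socs2 (-0.34, adjusted p = 0.0184) and Cish (-0.30, adjusted p = 0.0111), which restrain STAT5-type signals. The phosphatase Ptpn6 (SHP-1) rose by 0.29 and the receptor phosphatase Ptprd by 0.33, the latter with values below the array median in both groups. The other gene that rose was Pias2 (0.24, limma adjusted p = 0.0186), named after its value was seen and not followed through the alternatives. Socs1, a potent inhibitor of Janus kinases, was at 0.06 (adjusted p = 0.704). The named calls here other than that of Pias2 were fragile. Socs2 lost its call when WT replicate 2 (-0.19, adjusted p = 0.284) was left out, or Zip13KO replicate 2 (-0.25, 0.0816), as did Cish without WT replicate 2 (0.0848) or as the mean of its rows (0.0575). Ptpn6 was no longer called without WT replicate 1 (adjusted p = 0.192) or Zip13KO replicate 1 (0.186), nor Ptprd without WT replicate 2 (0.151) or Zip13KO replicate 1 (0.0514).

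Of 25 STAT3 target genes, 7 fell and 1 rose, beside 10.1% lower and 7.00% higher among all genes. Their median difference was -0.03 log2 units. After the filter on low values 8 of 19 passed, beside 28.8% of the genes kept. Of these 8, 7 were lower, where 17.0% of the genes kept were lower. Mmp2, a gelatinase of the matrix that also answers to other signals, fell most (-2.68). Hif1a, the oxygen-sensing transcription factor, fell by 0.41 (-0.26 as the mean of its rows) and Cebpd, a factor of the acute-phase response, fell by 0.38. Ccnd1, the G1 cyclin, rose by 0.96 (adjusted p = 5.95e-09). The others that fell, named after their values were seen, were the AP-1 subunit Junb (-0.36), the kinase Pim1 (-0.36), the survival factor Mcl1 (-0.30) and the protease inhibitor Timp1 (-0.24). Bcl3 (0.00) and Fos (0.00), which are induced quickly by STAT3, were level, and the acute-phase genes Lcn2, Saa3 and Hp had values below the array median throughout. Timp1 lost its call without WT replicate 1 (adjusted p = 0.0612) or WT replicate 2 (0.0844) and with the replicate block (0.0557), and Pim1 did not pass without Zip13KO replicate 2 (0.0649) or as the mean of its rows (0.110). Several of these genes answer to many pathways, and the array does not show which one acted.

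Genes that control Il6 transcripts and the shedding of its receptor changed in both directions, with 4 of 11 higher and 3 lower. Among all genes 7.00% rose and 10.1% fell. Nfkbiz, a nuclear cofactor that NF-kB needs at the Il6 promoter, read 8.35 and 7.92 log2 units in WT and 7.34 and 7.39 in Zip13KO. It fell by 0.77 (SE 0.11, adjusted p = 3.62e-05), although the WT arrays were 0.43 apart, and it was -0.56 without WT replicate 1 and -0.99 without WT replicate 2, both past the threshold. Arid5a, which stabilises Il6 mRNA, rose by 0.36 but did not pass without Zip13KO replicate 1 (adjusted p = 0.0882). Of the proteins that destroy such mRNA, Zfp36 (tristetraprolin, -0.36) and Zc3h12a (Regnase-1, -0.28) fell, whereas the relative Zfp36l2 rose by 0.56. Zfp36 and Zc3h12a were named after their values were seen. So was Rela, an NF-kB subunit, which rose by 0.18 (limma adjusted p = 0.0443) and was not followed through the alternatives. Zfp36 lost its call without WT replicate 1 (adjusted p = 0.0629), and Zc3h12a lost it without WT replicate 1 (0.265) and without Zip13KO replicate 1 (0.266). Rhbdf2, which brings the sheddase ADAM17 to the cell surface, rose by 0.66 (adjusted p = 7.70e-06) from values below the array median on both WT arrays to values above it on both Zip13KO arrays, while the sheddases Adam17 (0.05) and Adam10 (-0.08) did not pass. Il6 itself, as given above, did not differ detectably.

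**Figure D4:**
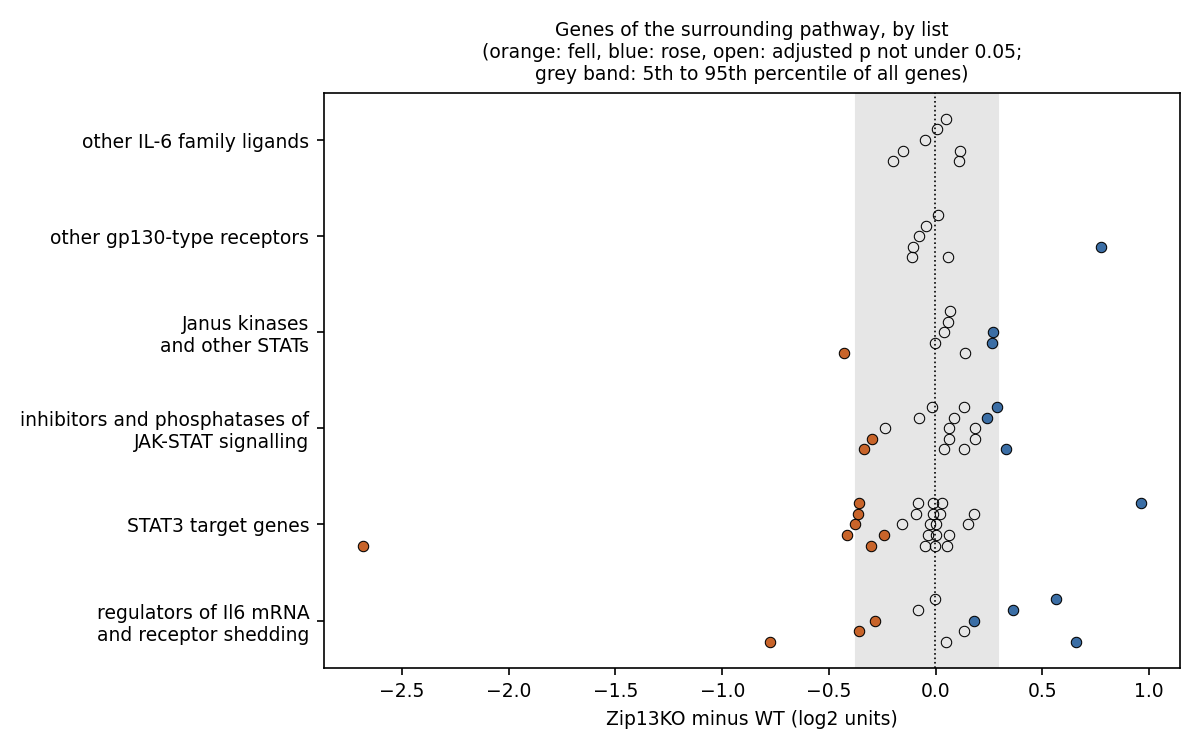
Zip13KO minus WT in log2 units (horizontal axis) for 74 measured genes in 6 lists (vertical axis), filled where the adjusted p was under 0.05, with the central range of all genes in grey. The genes that passed lie on both sides of 0, from Mmp2 at -2.68 to Ccnd1 at 0.96, and none passed among the other ligands.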

How the data were processed

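Total RNA of 4 fibroblast samples had been hybridised to 1 Affymetrix Mouse Gene 2.0 ST array each, per the labels. The authors deposited intensity on a linear scale. The submitters' processing notes name Affymetrix Expression Console and RMA, a method that corrects background, makes arrays alike and summarises probes; versions, summary level and annotation are not stated in any source used. A shift common to most genes would therefore be lost. Log2 of the intensity was taken with no pseudocount and no filter.

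Of 41345 rows, 23521 had 1 gene symbol in the platform annotation, 1814 had several and 16010 had none. The brightest row of each gene was kept, which left 22180 genes. The test was limma 3.58.1 under R 4.3.3 (lmFit, eBayes with an intensity trend, 2 residual and 15.1 prior degrees of freedom, two-sided), with Benjamini-Hochberg adjustment over all genes. The code was tested on simulated data, drawn as independent arrays with the spread of this fit. Such data check the code and say nothing about the calls made here. Plots were drawn with matplotlib 3.10.9.

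The members and lists were chosen with earlier results of these data known. The rule for named genes gave all members, up to 4 genes per pathway list past the threshold with the largest difference (or else the smallest p), and the 5 genes nearest to Osmr in pattern. Replicate numbers were not taken as pairs: deviations of same-numbered arrays from their group means correlated at -0.16 over genes. Alternatives were a replicate block, a filter on low values (2 or more arrays above their median), quantile normalization on top, median centring, eBayes without trend or robust, the mean of a gene's rows, all rows in the fit, and each array left out; a lone remaining array is taken to vary as the other group does.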

Additional observations from a re-analysis of the deposited data

How the results depend on the processing

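Osmr, Lifr, Stat3 and Il6st stayed below 0 and past the threshold under all 13 alternatives, with Osmr between -1.56 and -1.43, Lifr between -0.72 and -0.61, Stat3 between -0.73 and -0.55 and Il6st between -0.46 and -0.33 log2 units. Il6, Il11, Lif, Il6ra and Socs3 passed in none of those that gave a value (Il6 gave none after the filter on low values), and the lowest adjusted p was 0.0682, for Socs3. With 1 array left out, the sign of 3 of these turned, with ranges of -0.062 to 0.18 for Il6, -0.024 to 0.27 for Lif and -0.055 to 0.011 for Il6ra. Genes called numbered 3786, 2921 to 3808 with 1 array left out, and 1806 when all rows entered the fit and adjustment. Pathway genes called numbered 24, then 17 to 21 and 10 under the same settings. Members called were 4 throughout. The fit with all rows tests 41345 features, and its prior degrees of freedom were 4.08 against 15.1, so both the adjustment and the variance model differ. Their shares in the lost calls were not tested. In the fit with all rows the limma adjusted p was 4.13e-04 for Osmr, 0.00833 for Lifr, 0.0107 for Stat3 and 0.0301 for Il6st.

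With the replicate number as a block, 3364 genes, 4 members and 20 pathway genes were called. The correlation of -0.16 prompted a block of crossed numbers, chosen after seeing the data, which called 5208 genes, 4 members and 29 pathway genes. Alternatives gave 298 estimates for 23 pathway genes, which include those named after their values were seen, except Pias2 and Rela. Of these estimates, 262 had the same status as in the main fit, 34 lost a call, 2 gained one and 0 changed sign. The 262 include 11 of Clcf1, which had no call to keep. The number of arrays and the dim signals of Il6, Il11 and Osm limit what can be detected.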

Other observations

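Receptor chains for other cytokines that use Janus kinases were examined as well, from a list drawn up after the results above were known. Of 11 measured, 4 fell and 1 rose in limma, beside 10.1% lower and 7.00% higher among all genes. The interferon receptor chains Ifnar1 (-0.28, adjusted p = 0.00700), Ifnar2 (-0.52, adjusted p = 2.84e-05) and Ifngr1 (-0.38, adjusted p = 7.38e-04) fell. Ifnar2 read 9.45 and 9.44 log2 units in WT and 8.94 and 8.90 in Zip13KO, so the groups were far apart compared with the replicates. Ifngr2 was at -0.16 and did not pass (adjusted p = 0.129). Il10rb, a chain shared by interleukin-10 and related cytokines, fell by 0.58, from 8.72 and 8.63 to 8.12 and 8.06. Il13ra1, which pairs with the interleukin-4 receptor, ran the other way, from 7.36 and 7.60 in WT to 8.46 and 8.37 in Zip13KO, a rise of 0.94 (adjusted p = 3.50e-07). Its partner Il4ra was at -0.04 (adjusted p = 0.846). These genes were not followed through the alternatives.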
